A study of Nicotiana tabacum with 4 samples.

Results

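In young primary leaves of tobacco, Nicotiana tabacum, 96 gene models that passed a read floor in wild-type plants had far less transcript in plants with the tomato transgene Wov. Wov is an allele of Woolly. The 96 models are called lost here only in the sense of the rule that chose them. They were chosen from the read counts, expressed as CPM, reads per 1000000 reads of the library's total. A model belonged to the set when its smaller wild-type (WT) CPM was at least 3 and was more than 4 times its larger CPM in Wov. Of the 50705 models in the deposited table, 26966 had at least 3 CPM in both WT libraries, and the 96 were 0.356% of these. Since the rule uses the contrast of Wov with WT, the levels and ratios of the 96 are given as a description, with no test.

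Leaf RNA was sequenced in 4 libraries, 2 of plants labelled Wov transgenic and 2 of plants labelled wild-type, all from young primary leaves of plants whose stage is labelled mature. The promoter that drives Wov, the number of transgenic lines, the age of the plants and the number of plants behind a library are stated by no label. Library totals were 9126074 (Wov 1), 10813356 (Wov 2), 11736154 (WT 1) and 11110640 (WT 2) reads. Wov 1 and Wov 2 differed more than 2-fold in 18.4% of the models with at least 3 CPM in both of them, and WT 1 and WT 2 in 6.45% of those with at least 3 CPM in both WT libraries, so results that rest on 1 Wov library are also given without it. Nothing states that the libraries of a genotype came from separate plants, so their spread may be partly technical.

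Woolly is a class IV member of the homeodomain-leucine zipper family of transcription factors. Proteins of this class act in the epidermis, and in tomato Woolly promotes the formation of multicellular trichomes, the hairs that grow from epidermal cells. Tobacco leaves bear glandular and non-glandular trichomes, and the species carries gene copies from both of its parental species, so that near-identical copies of a gene are common. The label of lost leaf transcripts could not be checked against markers of leaf cell types, because the deposited tables give the models numbered IDs with no gene names. In the RefSeq gene table, 0 of the 50705 IDs were found under any identifier or symbol (assembly ASM71507v2). Roles, gene groups and sequences of the 96 are therefore not given, and 2 IDs are named as examples. In whole leaf, fewer cells that make a transcript and less transcript per cell cannot be told apart. Whether reads shared by near-identical copies were split or dropped in the authors' counting is not stated by any source used here, so a model's level may include reads of its copies.

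The most abundant of the 96 in WT was gene_51803, a model of 872 bases. It had 64 and 18 reads in Wov 1 and Wov 2, against 2158 and 1319 reads in the WT libraries. As CPM this was 7.01 and 1.66 in Wov, against 184 and 119 in WT, with means of 4.34 ± 3.78 in Wov and 151.3 ± 46.1 in WT (SD, n = 2 each). Both Wov libraries lay far below both WT libraries, and within each genotype library 1 was the higher one. Over the summed reads WT was 37.0 times as high as Wov, with an exact 95% counting interval of 29.7 to 46.6. That interval does not cover the spread between libraries: the log2 fold change of Wov over WT in the edgeR fit was -5.18 with all libraries, -6.53 without Wov 1 and -4.49 without Wov 2. Per length, in FPKM (reads per kilobase of model and 1000000 reads), gene_51803 reached 8.04 and 1.91 in Wov and 211 and 136 in WT. That made it the highest of the 96 in WT and number 510 among the 26966 models with at least 3 CPM in both WT libraries.

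The model gene_35068, of 1416 bases, stands for the other end, where no read was left. It had 0 reads in both Wov libraries, against 122 and 61 reads in the WT libraries. In WT this came to 10.4 and 5.49 CPM, a mean of 7.94 ± 3.47 (SD, n = 2), or 7.34 and 3.88 FPKM. A count of 0 allows up to 3 reads, taken here over both Wov libraries together, and with 3 reads in place of 0 WT would stand 53.2 times as high. The exact 95% counting interval of the ratio, which also covers the counting error of the WT reads, put WT at least 42.9-fold higher. That interval does not cover the spread between the WT libraries. Only 1 other of the 96 had no read in either Wov library, and it had 111 and 70 reads in WT, at least 42.4-fold higher by the same interval. It was a shorter model of 395 bases.

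**Figure D1:**
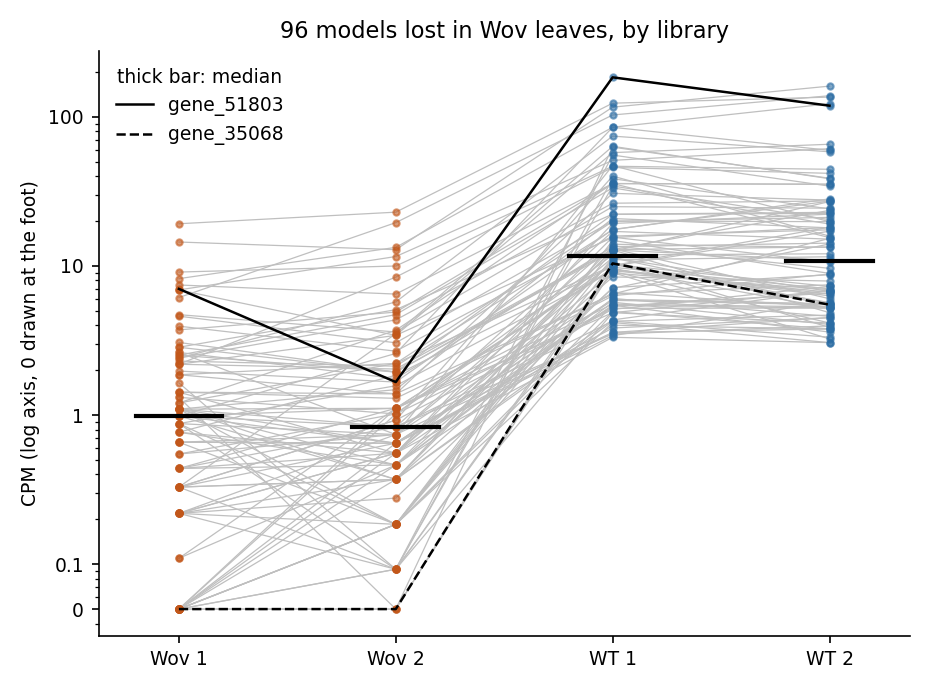
CPM of the 96 models in each library, on a log axis with 0 drawn at the foot. Each point is a model, grey lines join the same model across libraries, thick bars are medians (0.986 and 0.832 CPM in Wov, against 11.6 and 10.8 in WT), and the black lines follow gene_51803 and gene_35068. The points of the Wov libraries reach no higher than 22.9 CPM and those of the WT libraries start at 3.06 CPM.

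Across all 96, the median level was 0.986 CPM in Wov 1 and 0.832 CPM in Wov 2, against 11.6 CPM in WT 1 and 10.8 CPM in WT 2. The lowest, median and highest group means were 0, 0.795 and 21.1 CPM in Wov libraries, against 3.19, 11.4 and 151.3 CPM in WT. In WT the set thus ran from transcripts near the floor of the rule into the highest of 5 equal abundance classes of WT-expressed models. That class spanned 38.8 to 14751 CPM and held 14 of the 96. In WT, 51 of the 96 exceeded 10 CPM and 5 exceeded 100 CPM, while 14 stayed under 5 CPM. In FPKM, the median of the group means was 0.653 in Wov and 6.89 in WT, and 2 models exceeded 100 FPKM in WT. The median over the 26966 WT-expressed models was 6.24 FPKM in WT, so the set was about as abundant per length as WT-expressed models in general. Together the 96 took 1640 and 2325 reads of the Wov libraries, against 26221 and 23102 of the WT libraries. These were 0.0180% (exact 95% binomial interval 0.0171 to 0.0189) of Wov 1 and 0.0215% (0.0206 to 0.0224) of Wov 2, against 0.223% (0.221 to 0.226) of WT 1 and 0.208% (0.205 to 0.211) of WT 2. The intervals cover counting error only. The 5 most abundant models supplied 31.8% of the set's reads in Wov and 29.8% of them in WT.

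The loss was rarely complete. The mean level in Wov was 9.68% of the mean level in WT at the median, with quartiles of 4.77% and 12.8% and a highest value of 21.97%. Ratios of the WT mean to the Wov mean were between 4 and 8 in 25 models, between 8 and 16 in 39, between 16 and 32 in 12, and above 32 or with no Wov read in 20. At least 1 read remained in 1 or both Wov libraries in 94 of the 96. Wov 1 had no read in 14 models and Wov 2 in 3, and 12 models were at 0 in Wov 1 only and 1 in Wov 2 only. Wov 1 was the shallower library, with 9126074 reads against 10813356 in Wov 2. Whether depth bears on these zeros was not tested.

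The models ranked 2 and 3 by CPM in WT showed the partial kind of loss. The model ranked 2 had 132 and 139 reads in Wov and 1362 and 1784 in WT, with WT 10.1 times as high over the summed reads (8.95 to 11.5). The model ranked 3 had 175 and 248 reads in Wov and 1448 and 1506 in WT, 6.09 times as high in WT (5.50 to 6.76). Each kept over 100 reads in every Wov library. The Wov libraries lay close together, at 14.5 and 12.9 CPM for rank 2 and 19.2 and 22.9 CPM for rank 3. In WT the model ranked 2 had 116 and 161 CPM, and the model ranked 3 had 123 and 136 CPM. The model ranked 3 was the only one of the 96 with a mean above 10 FPKM in Wov, at 22.3 and 26.7 FPKM against 143 and 158 FPKM in WT. By contrast, the model ranked 11 in WT by CPM had 12 and 0 reads in Wov and 735 and 430 reads in WT. Its ratio was larger, with WT 84.7 times as high (48.3 to 165), and at 509 bases it ranked 3 in the set in WT per length, at 123 and 76.0 FPKM.

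**Figure D2:**
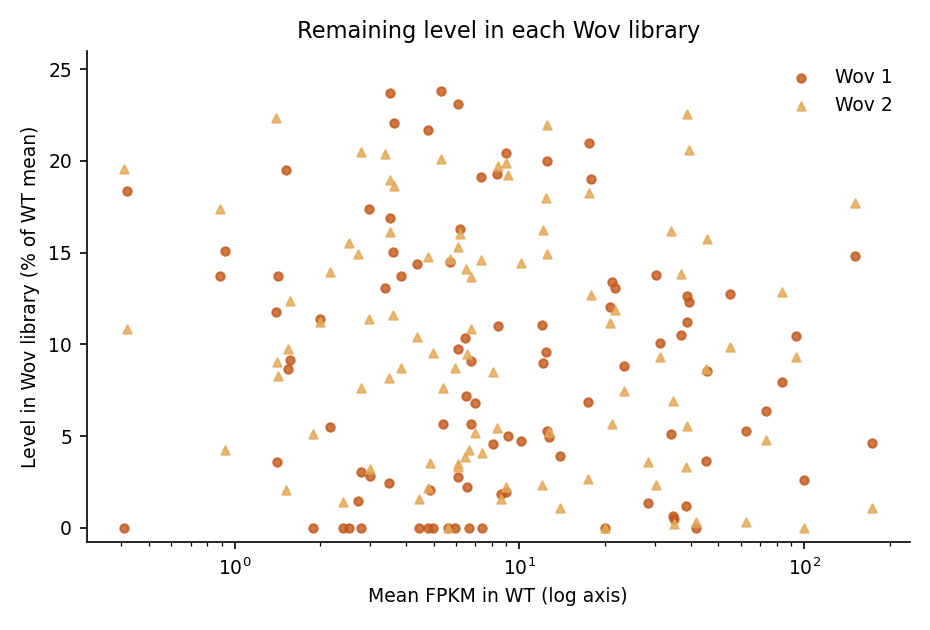
Level of each of the 96 models in Wov 1 (circles) and in Wov 2 (triangles), as a percentage of the WT mean, against the mean WT level in FPKM on a log axis. The medians are 8.60% in Wov 1 and 9.49% in Wov 2, and models with nearly nothing left stand at low and high WT levels alike.

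Among the 94 models with a Wov read, the largest ratio over the summed reads belonged to a model that carries the ID number next to that of another member. It had 0 and 1 reads in Wov, against 403 and 227 in WT. Its ratio of WT to Wov was 550 (98.3 to 21751). The model with the next number had 2 and 1 reads in Wov and 650 and 381 in WT, 300 times as high in WT (102 to 1457), the second largest ratio of the 94. The 2 models with no Wov read have lower limits alone and are not ranked. The lengths of the 2 models with consecutive numbers were 658 and 1282 bases, and WT 1 stood above WT 2 by the factors 1.68 and 1.61. Both were thus nearly absent in Wov. Their balance between the WT libraries was not particular to them. The median of that factor was 1.57 among the 20 models with a ratio above 32 or no Wov read. A further pair of consecutive numbers had 13 and 15 reads in Wov against 76 and 83 in WT for one, and 10 and 5 against 99 and 88 for the other. What the order of the ID numbers stands for and whether such models overlap are not given in the sources used.

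The models numbered next to the 96 that were no members themselves were set beside the rest of the table, since the rule did not choose them. There were 134 such neighbours, 67 of them with at least 3 CPM in both WT libraries. Of the 67, 11 (16.4%) had a Wov mean under 50% of the WT mean, against 9.04% of the 26870 WT-expressed models outside the set. Both Wov libraries lay below both WT libraries in 26 of the 67 (38.8%), against 26.4% of those models. The median ratio of Wov to WT was 0.917 for the neighbours and 0.977 for the other models. The lowest neighbour had 5 and 23 reads in Wov and 69 and 155 in WT. The differences are between shares of genes within 1 comparison and were not tested.

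Which libraries decide the set was read by choosing on fewer of them. With Wov 1 alone against both WT libraries, the same floor and ratio picked 837 models, and with Wov 2 alone they picked 255. The 96 are the models picked by both, 11.5% of the first list and 37.6% of the second. Most of the models chosen on Wov 1 were thus less low in Wov 2. The percentages below use the WT libraries that also took part in the choice. In the 837 models chosen on Wov 1, the level in Wov 2, which took no part in that choice, was 53.0% of the WT mean at the median (quartiles 34.5% and 70.5%). It was below both WT libraries in 84.2% of them, against 39.4% of all WT-expressed models. In the 255 chosen on Wov 2, the level in Wov 1 was 32.3% of the WT mean at the median (11.9% and 76.2%) and below both WT libraries in 80.4%, against 45.0% of all. Wov 1 lay above both WT libraries in 38 of the 255 (14.9%), against 40.2% of all WT-expressed models, and Wov 2 in 19 of the 837 (2.27%), against 36.5%. Leaving out WT 1 or WT 2 instead gave 195 models in each case, and 96 models were in both of these lists.

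**Figure D3:**
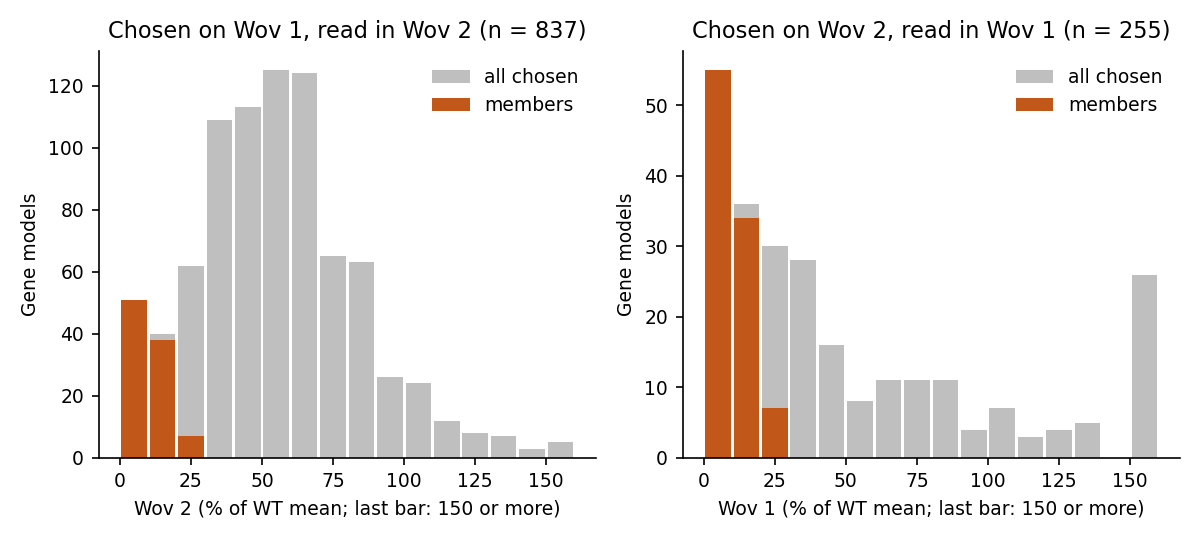
Models chosen on 1 Wov library against both WT libraries, by their level in the other Wov library as a percentage of the WT mean (bars of 10 points, the last one for 150% or more). Grey bars are the 837 models chosen on Wov 1 and the 255 chosen on Wov 2, and the 96 members, in colour, fill the low end of both. Most of the 837 in the left panel stand between 30% and 70%, and 26 models on the right panel reach 150% or more.

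Choosing on 1 Wov and 1 WT library and reading the other 2 gave 4 views that share no library between choice and reading. Chosen on Wov 1 and WT 1, 128 of 2220 models (5.77%) were also more than 4-fold lower in Wov 2 than in WT 2, against 1.78% of all models with at least 3 CPM in WT 1. Chosen on Wov 1 and WT 2, 167 of 1065 (15.7%) were so in the other libraries, against 1.33%. Chosen on Wov 2 and WT 1 the count was 176 of 418 (42.1%), against 3.83%. Chosen on Wov 2 and WT 2 it was 128 of 627 (20.4%), against 6.01%. In each view the share was above that of all models, and it was below 50% throughout. The views are built from the same 4 libraries, so they are not separate repeats. Across 38981 models the log2 difference of Wov 1 from Wov 2 correlated at -0.49 with that of WT 1 from WT 2. Whether this bears on how the shares differ between views was not tested.

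Among the 96, WT 1 was more often the higher WT library where the ratio of WT to Wov was larger. WT 1 was higher than WT 2 in 57 of the 96 models (59.4%), against 48.3% of the 26966 WT-expressed models. Among models whose WT mean was 4 to 8 times the Wov mean, WT 1 was the higher library in 9 of 25, with a median ratio of WT 1 to WT 2 of 0.947. In the class of 8 to 16 times it was higher in 19 of 39 (median ratio 0.996), and in the class of 16 to 32 times in 10 of 12 (1.30). Above 32 times, including the 2 models with no Wov read, WT 1 was higher in 19 of 20, with a median ratio of 1.57. Across the 94 models with a Wov read, the log2 ratio of WT to Wov and the log2 ratio of WT 1 to WT 2 correlated at a Pearson r of 0.49 and a Spearman rho of 0.55. The points share libraries and both measures contain the WT levels, so this is a description across models. The rule also chose the 96 on these levels, and no other models were set beside the ratio classes. The size of the loss had a correlation of 0.11 with the WT level and of -0.14 with model length, both on log2 scales.

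**Figure D4:**
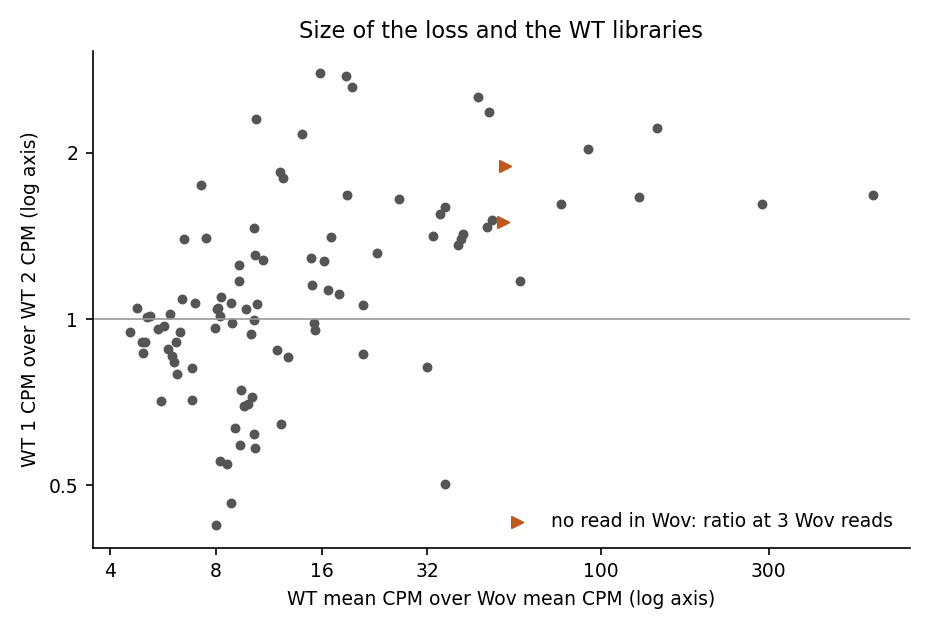
Ratio of WT 1 to WT 2 CPM against the ratio of the WT mean to the Wov mean, both on log axes, for the 94 models with a Wov read (dots) and the 2 with none (arrowheads, at the ratio that 3 Wov reads would give). The horizontal line marks equal WT libraries, and beyond a ratio of 32 all but 1 of the 20 models lie above it.

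A difference of more than 2-fold between the WT libraries was seen in 11 of the 96 (11.5%), against 6.45% of all WT-expressed models. Between the Wov libraries 42 of the 96 differed by as much, where most counts are small. The share was 18.4% over models with at least 3 CPM in both Wov libraries. That is no matched background, since the upper quartile of the 96 Wov means was 2.20 CPM. Wov 2 was higher than Wov 1 in 53 models and lower in 41, and it was equal at 0 in the other 2. Wov 2 above Wov 1 with WT 1 above WT 2 held in 33 of the 96 (34.4%), against 33.8% of other WT-expressed models. In this combination Wov 1 and WT 1 are the extremes. The opposite order, with Wov 1 and WT 2 each higher or equal, held in 19 of the 96 (19.8%), against 32.8%. Wov 1 higher or equal with WT 1 higher held in 24 of the 96, against 14.5%. Wov 2 higher with WT 2 higher or equal held in 20 of the 96 (20.8%), against 18.9%. The differences in these shares were not tested.

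Model length took no part in the rule. The 96 models had a median length of 1608 bases, with quartiles of 781 and 2733 and a range of 264 to 14201 bases. The median over all WT-expressed models was 2333 bases, with quartiles of 1439 and 3892. Under 1000 bases lay 32 of the 96 (33.3%), against 11.7% of WT-expressed models, and over 5000 bases lay 3 (3.13%), against 16.1%. When the WT-expressed models were cut into 5 equal classes by length, members made up 0.667% of the shortest class, 0.352% of each of the next 2, 0.278% of class 4 and 0.130% of the longest. The mirror set, 383 models higher in Wov by the same floor and ratio (1.43% of 26714), had a median length of 1768 bases, so a short length was not seen in the lost models alone. By WT abundance in CPM the share of members was 0.482% in the lowest of 5 equal classes, 0.371%, 0.297% and 0.371% in those between and 0.260% in the highest. These shares were not tested, and the lengths are those behind the authors' FPKM.

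**Figure D5:**
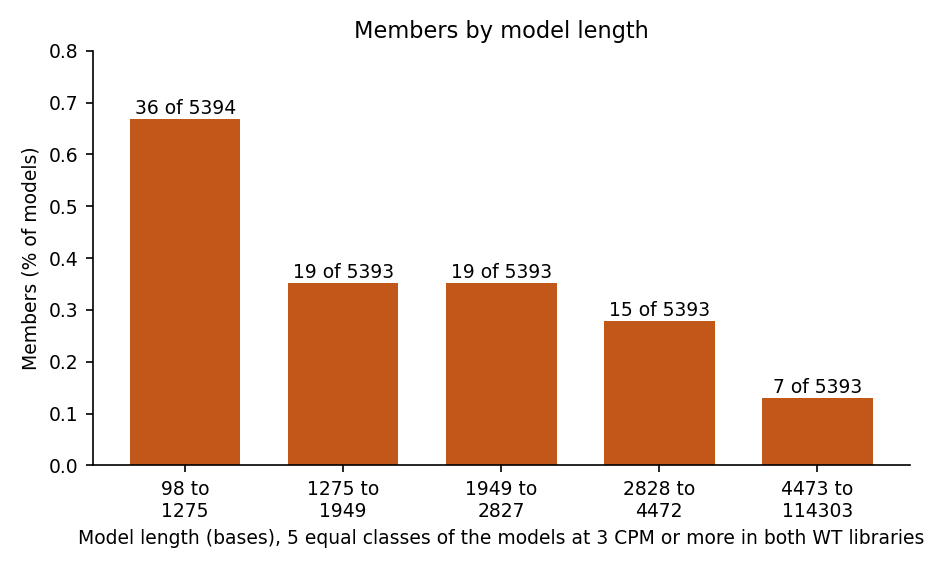
Members as a percentage of the models with at least 3 CPM in both WT libraries, in 5 equal classes of model length. The bars start at 0, the numbers above them are members of models, and the share runs from 0.667% in the shortest class (36 of 5394) to 0.130% in the longest (7 of 5393).

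The fit over the whole table is given as background, since the rule used the same contrast. In the edgeR quasi-likelihood test, adjusted by Benjamini and Hochberg, 0 of the 96 and 0 of all 38981 models tested (0%) were lower in Wov at an adjusted p under 0.05. At an unadjusted p under 0.05 there were 96 of the 96 and 2426 of all (6.22%), and at an adjusted p under 0.1 there were 32 of the 96 and 32 of all (0.0821%). DESeq2's Wald test called 90 of the 96 and 425 of 41595 models (1.02%) lower at an adjusted p under 0.05, and the edgeR exact test called 96 and 544 (1.4%). On log2(FPKM + 1), limma called 21 of the 91 members it tested and 22 of 32541 models (0.0676%). The adjusted p of edgeR's quasi-likelihood test was 0.109 for gene_51803 and 0.0903 for gene_35068. For gene_51803 the log2 fold change of Wov over WT was -5.18. Its SE of 0.78 was worked back as the size of the fold change over the square root of the test's F statistic. Nothing is read from the members' share, because models far apart in these libraries were chosen to begin with.

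The borders of the rule cut through a continuous range. Inside the ratio of 4, 12 of the 96 had a ratio of the smaller WT to the larger Wov CPM under 4.5, the closest at 4.02, 4.05 and 4.08. Outside it, 23 WT-expressed models lay above 3.5, the closest at 3.98, 3.96 and 3.95. At the floor, the lowest WT values of members were 3.06, 3.06 and 3.24 CPM, and 13 further models passed the ratio with a smaller WT level of at least 2 CPM, the closest at 2.79 CPM.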

How the data were processed

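The authors deposited 1 table of read counts and 1 table of FPKM for the same 50705 gene models in 4 libraries. Per the labels' protocols, RNA came from frozen young leaves by TRIzol, and library preparation was the usual Illumina one. The submitters' processing notes name TopHat, a spliced aligner. Its version, genome build, gene models, counter and strandedness: not given in the sources used here. The deposited FPKM equal the count divided by a model length and by the library total (relative tolerance 1e-04), so they add no independent measurement, and they gave the length of the 48127 models with a read.

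The set, its rule and the comparisons were chosen with earlier results of these data known. CPM used the column totals. The fit was made in R 4.3.3 with edgeR 4.0.16 on the 2 Wov and 2 WT libraries, with genotype as the sole term. It used filterByExpr, TMM scaling and the robust two-sided quasi-likelihood test. On simulated data, only the recovery of known median fold changes was required of it, with no limit set on false calls. DESeq2 1.42.0, limma 3.58.1 on log2(FPKM + pseudocount) with pseudocounts of 1 and 0.1 (models at FPKM 1 or more in 2 libraries), and other scalings, floors, ratios and left-out libraries served as alternatives. With 2 against 2 libraries no permutation p can be below 0.333, so none was used. The rule for named models, whose IDs have no names, took the highest WT CPM among the 96 and the highest among those with no Wov read, and others are given by rank. Ratios over summed reads have exact conditional 95% intervals for counting error only.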

Additional observations from a re-analysis of the deposited data

How the results depend on the processing

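The 96 models became 105 or 106 under TMM, upper quartile or DESeq2 scaling, 134 with a WT floor of 1 CPM, 77 with a floor of 3 FPKM and 119 when Wov and WT libraries were compared by number only. They became 46 with a floor of 10 CPM, 182 at a ratio of 3 and 40 at a ratio of 8, by construction. Leaving out libraries in turn gave 195 to 837 (837 without Wov 2, 255 without Wov 1, 195 without WT 1 or WT 2), since fewer libraries have to stand apart. Models called lower at an adjusted p under 0.05 numbered 0 by edgeR's quasi-likelihood test and also 0 with either other scaling, a stricter filter or the library number as a replicate block. DESeq2 gave 425, the edgeR exact test 544 and no filter 36; there were 22 and 5 with limma on log2(FPKM + 1) and log2(FPKM + 0.1), and 1 to 1143 without each library (46 without Wov 1, 1143 without Wov 2, 1 without WT 1, 3 without WT 2), where the lone library is assumed to vary like the others. The cause was not tested. The deviations of same-numbered libraries correlated at -0.49 across 38981 models, and the numbers were therefore not used to pair libraries. Used as the block, a crossed pairing that no label gives and that was added after seeing the data gave 2753. The median fitted log2 fold change of the 96 was -3.40, also with the 2 models at 0 in Wov set to the ratio at 3 reads. It was -3.50 under the replicate block and -3.57 to -3.40 without each library. With more than 2-fold in the held-out libraries, the shares were 17.0%, 51.5%, 63.9% and 37.8% in the order given above. Over all models with at least 3 CPM in the WT library used for choosing, they were 9.20%, 9.29%, 16.6% and 19.6%. With a floor of 10 CPM the share chosen on Wov 1 with WT 1 was 4.69%, against 1.36% of all. That chosen on Wov 2 with WT 1 was 54.1%, against 4.06% of all. The other shares moved less than their counting error. The median length was 1477 bases at 10 CPM and 1466 at a ratio of 8, against 2282 and 2333 over all WT-expressed models at the matching floors. The mean share of reads was 0.0169% in Wov and 0.182% in WT at 10 CPM, and 0.00489% and 0.106% at a ratio of 8. All 14 alternative fits gave gene_51803 and gene_35068 negative fold changes, a sign fixed by the rule. Their adjusted p depended on the fit, from 3.18e-13 (gene_51803, DESeq2) and 1.04e-09 (gene_35068, edgeR exact test) to 0.18 for both (replicate block). Small counts in Wov limit the ratios: the 96 had a median of 16 reads over both Wov libraries.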
